A study of Drosophila melanogaster with 13 samples.

Results

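The genes described here encode partners of the male-specific lethal (MSL) complex, the dosage compensation machinery of the *Drosophila melanogaster* male, and subunits of the non-specific lethal (NSL) complex. They were chosen by name: *Clamp*, *JIL-1*, *Top2*, *Set2*, *pzg* and *Chro* as factors that recruit the MSL complex or work beside it, and *nsl1*, *MBD-R2*, *wds* and *Rcd5* as NSL subunits. Of these 10 genes, 9 had a row in the count files, out of 17476 genes there and 13975 tested. *Top2* was not analysed here, because the identifier that the annotation gives it has no row in the files.

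RNA was sequenced from whole first instar male larvae in 13 libraries. The *roX1 roX2* mutant (3 libraries) carried y1 w1118 roX1ex6 roX2 9-4, the *roX1* mutant (4 libraries) y1 w1118 roX1ex6, the *roX2* mutant (3 libraries) y1 cho2 v1 roX2 9-4, and wildtype (3 libraries) y1 w1118. The methods of the study add v1 to the double mutant, whose X chromosome was recombined between *cho* and *v*. Sons came from crosses to FM7i, ActGFP males. The mothers of the double mutant carried its X chromosome over that balancer, while those of the other genotypes carried no balancer X, so the double mutant also differed in its mothers, and the genotypes were not isogenic. All genotypes carried y1, and each mutant allele is represented by a single strain. The methods call the libraries of a genotype biological replicates, each from pooled larvae, and do not say whether they came from separate crosses, so p-values measure the spread between these libraries.

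In *Drosophila* males the MSL complex, with the long non-coding RNAs roX1 and roX2, binds the single X chromosome and its enzyme MOF acetylates histone H4 along active genes. The zinc finger protein CLAMP binds GA-rich sequences at the sites where the complex first attaches. The methyltransferase Set2 marks the bodies of active genes with methylated histone H3, which the MSL complex recognises when it spreads. The kinase JIL-1 phosphorylates histone H3 and is enriched on the male X, and the interband proteins encoded by *Chro* and *pzg* are found with it in open chromatin. The NSL complex also holds MOF but binds promoters of housekeeping genes on every chromosome, in males and females.

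The deleted RNAs matched the labels. *roX1* averaged 2.74 ± 1.33 CPM (counts scaled to library size, with trimmed mean of M values normalization) in the *roX1 roX2* mutant and 2.22 ± 1.12 in the *roX1* mutant, against 1046 ± 80.2 in wildtype (SD, n = 3, 4 and 3). *roX2* had at most 3 counts in any *roX1 roX2* mutant library and at most 2 in any *roX2* mutant library, against 1492 to 1648 counts in wildtype libraries. The X chromosomes also differed in marker genes: *w* stood at 28.2 ± 10.2 CPM in the *roX2* mutant, against 0.770 ± 0.362 in wildtype. *v*, named after its values were seen, stood at 0.0994 CPM in the *roX1 roX2* mutant and 0.282 CPM in the *roX2* mutant, against 22.3 CPM in wildtype. Libraries held 45620194 to 83954893 counts on genes, and the members averaged 1512 (*wds*) to 8750 (*nsl1*) counts per library.

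*Set2* and *wds* lie on the X chromosome and the other members on autosomes. In the release 6 assembly (Ensembl annotation), *Set2* spans X:13413242-13421024 on the plus strand and *wds* X:2585980-2588217 on the plus strand. *Clamp* lies on the minus strand at 2L:22165720-22169143, *JIL-1* on the minus strand at 3L:11078752-11093193, *pzg* on the plus strand at 3L:21286099-21290310 and *Chro* on the minus strand at 3L:22873702-22878984. *Rcd5* lies on the plus strand at 3L:4040529-4042597, *nsl1* on the plus strand at 3R:15793782-15802102 and *MBD-R2* on the minus strand at 3R:12352143-12356265. All are protein-coding, and values are counts over all annotated exons of a gene. *Clamp* shares 17.3% of its exon length with *CG42748* on the opposite strand and *Chro* shares 0.516% with neighbours, while no exon of the other members overlaps another gene. The library kit does not mark strand, so strand cannot assign reads in the shared part of *Clamp* and *CG42748*. Counted without strand, such reads would be ambiguous (2.91% to 3.37% of each library) and left out. The TPM of *Clamp* given below, divided by its full exon length, would then be an underestimate. Counting is described as run at default settings, which for this program means by strand, yet only 0.898% to 2.53% of the reads in each library fell on no gene, fewer than counting an unstranded library by strand would leave there. Which strand option was used is not settled. *wds* lies 202381 bases from *w* and on the *roX1*-strain side of the crossover between *cho* and *v*, and *Set2* on the *roX2*-strain side, so in the double mutant these members come from different parental X chromosomes.

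Levels were compared between genes as TPM (counts divided by summed exon length and scaled to the same total in each library). TPM carries no other normalization between libraries, so it orders genes within a genotype, and genotypes were compared on CPM and by the tests below. In the *roX1 roX2* mutant *Rcd5* was highest at 95.4 ± 7.88 TPM, followed by *Clamp* at 60.9 ± 6.20, *nsl1* at 49.7 ± 6.67, *MBD-R2* at 44.6 ± 4.81, *pzg* at 44.2 ± 4.55, *Chro* at 28.9 ± 4.19, *wds* at 17.2 ± 1.05, *JIL-1* at 15.3 ± 1.68 and *Set2* at 8.91 ± 1.37 (SD, n = 3). In wildtype the order was *Rcd5* at 70.6 ± 18.5 TPM, *Clamp* at 48.1 ± 2.96, *nsl1* at 37.0 ± 5.49, *pzg* at 36.7 ± 1.91, *MBD-R2* at 31.4 ± 4.29, *wds* at 22.9 ± 1.28, *Chro* at 21.9 ± 2.54, *JIL-1* at 16.0 ± 1.98 and *Set2* at 11.7 ± 2.57 (SD, n = 3). Among neighbours in the wildtype order, the libraries separated *Clamp* from *nsl1*, *MBD-R2* from *wds* and *Chro* from *JIL-1*, and overlapped for the other pairs. *wds* lay above *Chro* in wildtype, with overlap, and below it with no overlap in the *roX1 roX2* mutant. With the length of the longest transcript instead, *wds* lay below *Chro* in wildtype too, at 22.0 against 22.1 TPM. In CPM, without division by length, *nsl1* was the first and *wds* the last in wildtype.

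**Figure D1:**
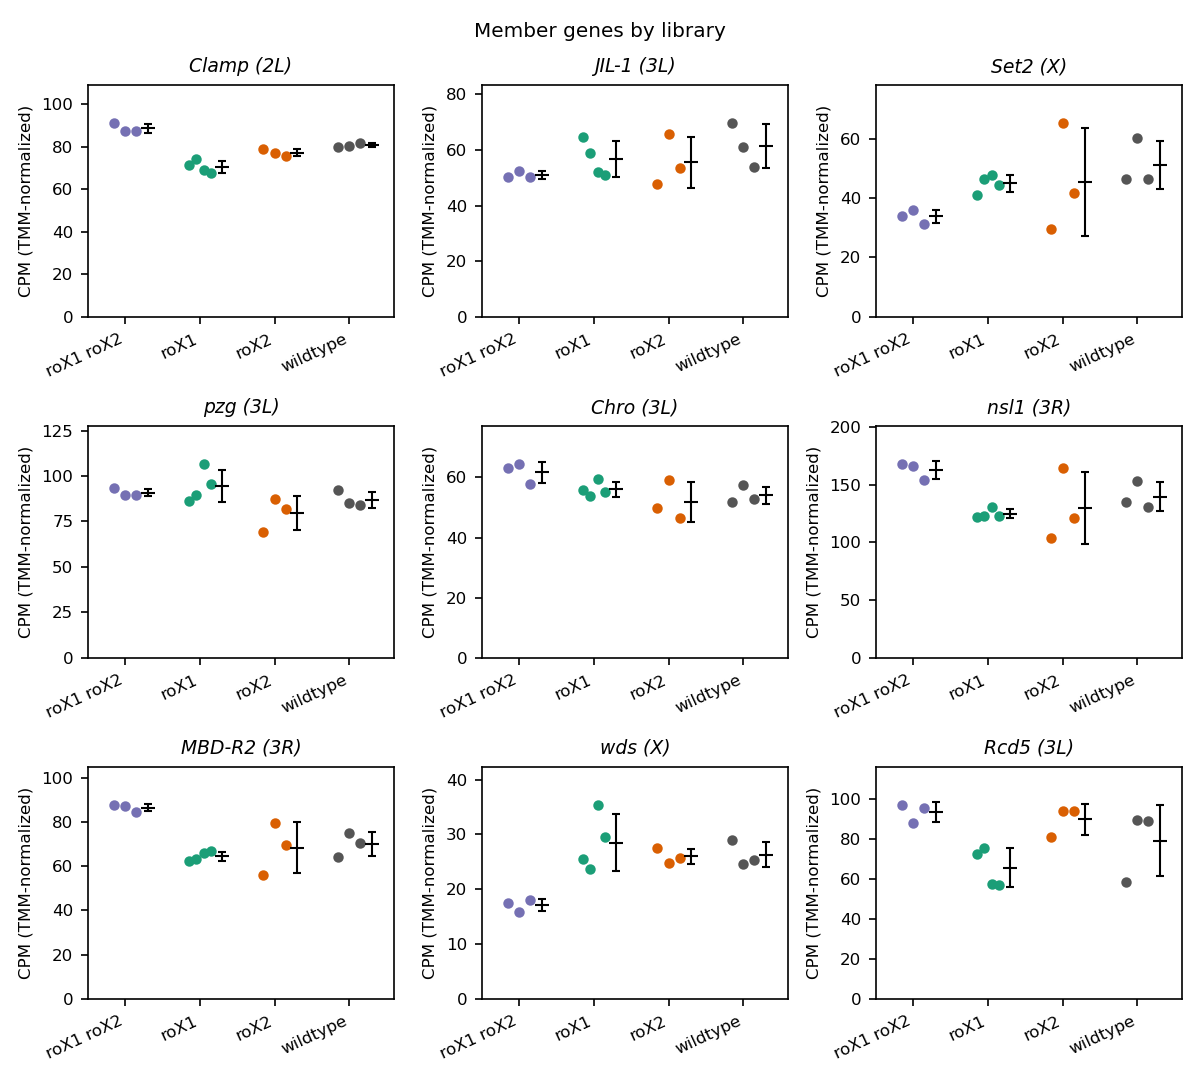
Normalized CPM of the 9 members in each library (points), with the mean and SD of each genotype beside them (bar and whiskers). The *roX1 roX2* mutant libraries of *wds* sit between 15.8 and 18.1 CPM, below every other library, and *Set2* spreads from 29.5 to 65.2 CPM within the *roX2* mutant.

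Loss of both roX RNAs addresses what happens to these genes when the MSL complex lacks its RNA. In the *roX1 roX2* mutant against wildtype, *wds* fell and the other 8 members passed no test. Differences as small as those of most members were not simulated. Recovery of the smallest simulated ones was low and depended on the dispersions simulated, so a member that was not called is not shown to be unchanged. The call of *wds* is 1 of 9 members, where 9.08% of all genes tested were called in either direction. Among X genes 27.0% were called lower, and among genes of 2L, 2R, 3L and 3R 1.77% were called lower and 3.92% higher. The median log2 fold change was 0.14 over the members and -0.02 over all genes, with -0.55 for X genes and 0.05 for major autosome genes.

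*wds* encodes the WD40 repeat protein of the NSL complex, which is also found in histone methyltransferase complexes. Its level was 17.5, 15.8 and 18.1 CPM in the *roX1 roX2* mutant libraries, against 28.9, 24.6 and 25.3 CPM in wildtype. The groups did not overlap, and no double mutant library reached the single mutants, with 25.5, 23.6, 35.3 and 29.6 CPM in the *roX1* mutant and 27.5, 24.8 and 25.6 CPM in the *roX2* mutant. The log2 fold change of the *roX1 roX2* mutant against wildtype was -0.62 (SE 0.15, 95% interval -0.94 to -0.30, edgeR adjusted p = 0.0248), a level 0.651 times that of wildtype. That interval includes the X median, and 44.2% of X genes had a lower log2 fold change. The call was lost without wildtype replicate 1 or 4 or without any 1 of the double mutant libraries, with edgeR adjusted p of 0.0551 to 0.107, and with the replicate number as a block (0.0927), while the fold change stayed between -0.70 and -0.55 in all 22 alternatives.

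*Set2*, the other X-linked member, had 34.1, 35.9 and 31.4 CPM in the *roX1 roX2* mutant libraries, against 46.6, 60.4 and 46.6 CPM in wildtype. These libraries did not overlap, but the log2 fold change of -0.60 (SE 0.23, 95% interval -1.10 to -0.10) did not pass the test (edgeR adjusted p = 0.130). The *roX2* mutant held both the lowest and the highest library of all, at 29.5 and 65.2 CPM, and the shared estimate of the spread includes them. With only the 6 libraries of the genotypes compared in the fit, the log2 fold change was -0.59 and passed (edgeR adjusted p = 0.0393), as it did without *roX2* mutant replicate 2 (0.0437) or 3 (0.0259), out of a range of 0.0259 to 0.313 over 22 alternatives.

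The 3 autosomal NSL members had positive log2 fold changes that did not pass. *MBD-R2*, a methyl-CpG-binding domain protein family member of the NSL complex, had 87.6, 87.0 and 84.6 CPM in the *roX1 roX2* mutant, against 64.1, 75.2 and 70.7 CPM in wildtype (log2 fold change 0.30, SE 0.12, edgeR adjusted p = 0.150). *nsl1*, which encodes a scaffold of the complex, had 167.9, 166.7 and 154.3 CPM in the *roX1 roX2* mutant, against 135.0, 153.8 and 130.9 CPM in wildtype (0.22, SE 0.15, edgeR adjusted p = 0.390). For both genes the libraries did not overlap. *Rcd5*, the homolog of human MCRS1, had 97.0, 87.9 and 95.6 CPM in the *roX1 roX2* mutant, against 58.7, 89.8 and 89.0 CPM in wildtype, where replicate 1 stood apart from the other two (0.24, SE 0.17, edgeR adjusted p = 0.425).

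Among the autosomal recruitment partners, *Clamp* had 91.0, 87.3 and 87.5 CPM in the *roX1 roX2* mutant, against 79.8, 80.5 and 81.6 CPM in wildtype (log2 fold change 0.14, SE 0.08, edgeR adjusted p = 0.337). The libraries of these groups did not overlap. *JIL-1* had 50.1, 52.5 and 50.1 CPM in the *roX1 roX2* mutant, against 69.6, 60.9 and 54.0 CPM in wildtype (-0.27, SE 0.15, edgeR adjusted p = 0.273). *Chro* averaged 61.7 ± 3.50 CPM in the *roX1 roX2* mutant and 54.0 ± 2.91 CPM in wildtype (SD, n = 3 each), with a log2 fold change of 0.19 (edgeR adjusted p = 0.302). *pzg* averaged 90.9 ± 2.11 CPM in the *roX1 roX2* mutant and 87.1 ± 4.40 CPM in wildtype (SD, n = 3 each), with a log2 fold change of 0.06 (edgeR adjusted p = 0.778), whose sign turned with another scaling. Libraries of the *roX1 roX2* mutant and wildtype did not overlap for 7 of 9 members, and for 37.3% of all genes tested.

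**Figure D2:**
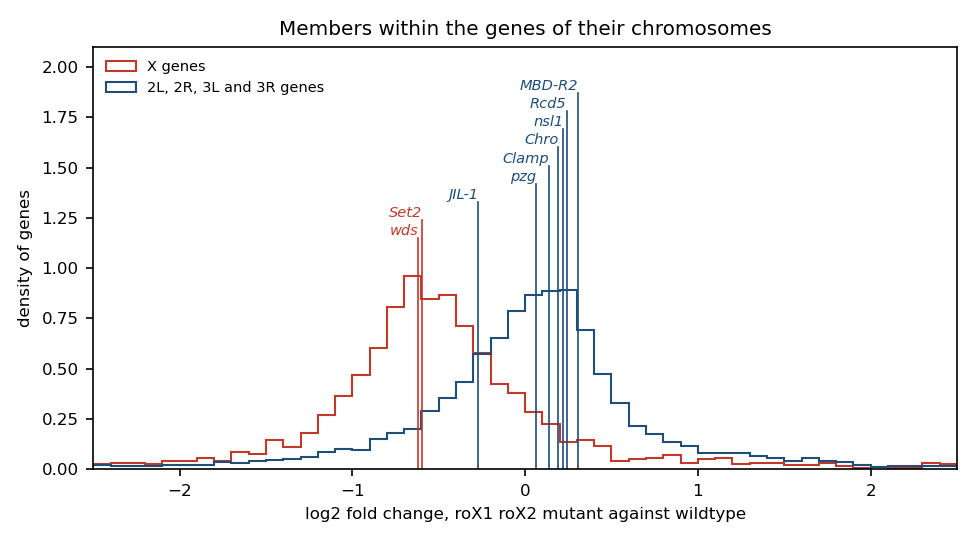
Density of log2 fold changes of the *roX1 roX2* mutant against wildtype for X genes (red) and genes of 2L, 2R, 3L and 3R (blue), with a vertical line for each member in the colour of its chromosome. *wds* at -0.62 and *Set2* at -0.60 lie next to the X median of -0.55, and the autosomal members lie between -0.27 and 0.30.

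Summed markers of some cell types differed in the double mutant. Among them *elav*, *up* and the adult female markers (*Yp1*, *Yp2*, *Yp3*) lie on the X chromosome. The summed level of the neuron markers (*elav*, *nSyb*, *Syt1*) was 890 to 1021 CPM in the *roX1 roX2* mutant, 703 to 881 CPM in the *roX1* mutant, 629 to 800 CPM in the *roX2* mutant and 657 to 827 CPM in wildtype. Of these, *elav* alone overlapped between the *roX1 roX2* mutant (118 to 142 CPM) and wildtype (97.3 to 124 CPM). The muscle markers (*Mhc*, *Mlc1*, *up*, *Act57B*) summed to 11240 to 14955 CPM in the *roX1 roX2* mutant, 19004 to 27595 CPM in the *roX1* mutant, 16813 to 26366 CPM in the *roX2* mutant and 23236 to 26656 CPM in wildtype. The fat body markers were *apolpp*, on chromosome 4, and *apoLTP*. They summed to 736 to 1342 CPM in the *roX1 roX2* mutant and 1812 to 2117 CPM in wildtype. Their sum was 2522 to 4237 CPM in the *roX1* mutant and 1055 to 2472 CPM in the *roX2* mutant. In the *roX1* mutant *apolpp* alone was higher, at 2292 to 3873 CPM against 1557 to 1818 CPM in wildtype. There *apoLTP* overlapped, at 222 to 364 CPM against 254 to 299 CPM. All listed markers of these tissues were above 0 in each genotype. In whole larvae fewer cells of a type and less RNA per cell cannot be told apart, and the part of these markers in the members' values was not tested. The neuroblast (*dpn*, *mira*, *ase*), gut, cuticle moult and male germ line lists overlapped between the *roX1 roX2* mutant and wildtype. The adult female list summed to 0.481 to 0.999 CPM in the *roX1 roX2* mutant and 1.42 to 1.66 CPM in wildtype, and the third instar list stayed at or below 0.743 CPM in each library.

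The *roX1 roX2* mutant and the *roX1* mutant both lack *roX1* and differ in *roX2*, and also in the X segment on the *v* side of the crossover, so the effects of the deletion and of that segment cannot be told apart. Here 3 members rose and 1 fell, 4 of 9, where 18.0% of all genes were called. *Clamp* had 91.0, 87.3 and 87.5 CPM in the *roX1 roX2* mutant, against 71.4, 74.0, 68.8 and 67.7 CPM in the *roX1* mutant (log2 fold change 0.33, SE 0.08, edgeR adjusted p = 0.0147). *MBD-R2* rose by a log2 fold change of 0.42 (SE 0.11, edgeR adjusted p = 0.0277), with 87.6, 87.0 and 84.6 CPM in the *roX1 roX2* mutant, against 62.2, 63.4, 65.8 and 66.7 CPM in the *roX1* mutant. *Rcd5* rose by 0.51 (SE 0.16, edgeR adjusted p = 0.0482), with 97.0, 87.9 and 95.6 CPM in the *roX1 roX2* mutant, against 72.7, 75.4, 57.8 and 57.2 CPM in the *roX1* mutant. Libraries of the genotypes did not overlap for 6 of 9 members, these genes among them, and the share over all genes was not computed. The neuron, muscle and fat body sums given above did not overlap either, and their part in these calls was not tested. Within the neuron sum, *elav* averaged 128 CPM in the *roX1 roX2* mutant and 138 CPM in the *roX1* mutant, with overlap. *Syt1* also overlapped, at 372 to 452 against 296 to 394 CPM. Only *nSyb* did not, at 395.2 to 427.5 against 281.2 to 334.9 CPM.

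*wds* fell in the same comparison, by 0.74 on the log2 scale (SE 0.14, edgeR adjusted p = 0.00626), and this call held in all 22 alternatives, among them the settings that follow. The X median here was -0.46, and 30.8% of X genes had a lower log2 fold change than *wds*. The *Clamp* call was lost in 1 of the 22 alternatives, without double mutant replicate 2 (edgeR adjusted p = 0.0566). The *MBD-R2* call was lost in 6, without *roX1* mutant replicate 1 or 2, without any 1 double mutant library and among the libraries described next, with edgeR adjusted p up to 0.122. The *Rcd5* call was lost in 12, which were another scaling, no filter on low counts, the replicate block, and leaving out wildtype replicate 3 or 4, *roX1* mutant replicate 1, 3 or 4, *roX2* mutant replicate 4 or any 1 double mutant library, with edgeR adjusted p up to 0.136. *nsl1* had a log2 fold change of 0.38 (SE 0.14) that did not pass (edgeR adjusted p = 0.0711), and *Set2*, *JIL-1*, *pzg* and *Chro* lay between -0.41 and 0.14. With only the genotypes compared in the fit, where 3607 genes were called, *nsl1* and *Set2* were called as well. *Set2* had a log2 fold change of -0.38 there (edgeR adjusted p = 0.0189). *nsl1* was also called without *roX2* mutant replicate 2 or 3.

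Libraries of a genotype did not all lie together. The first principal component over 8464 genes of the major autosome arms held 62.4% of the variance and set 4 libraries (*roX2* mutant replicate 4, *roX1* mutant replicates 1 and 2, wildtype replicate 1) apart from the other 9, which include all those of the double mutant. The cuticle moult list (*Osi7*, *Osi14*, *Osi20*) ranged from 11.9 to 3182 CPM within the *roX1* mutant and from 15.05 to 327 CPM within the *roX2* mutant. It held 13.2 to 16.5 CPM in *roX1 roX2* mutant libraries and 12.4 to 536 CPM in wildtype libraries. Among the 9 libraries alone, *wds* was called in the *roX1 roX2* mutant against wildtype and against either single mutant. *Clamp* and *Rcd5* were called against the *roX1* mutant there, and *MBD-R2* was not. The part of this division in the members' values was otherwise not tested.

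Against the *roX2* mutant, *wds* was the only member called in the *roX1 roX2* mutant, 1 of 9, where 7.67% of all genes were called. These genotypes differ in *roX1* and in the X segment on the *w* side of the crossover, which holds *wds*, so the effects of the deletion and of that segment on *wds* cannot be told apart. It had a log2 fold change of -0.60 (SE 0.15, edgeR adjusted p = 0.0301), where the X median was -0.58 and 47.5% of X genes lay lower. The call was lost in 7 of 22 alternatives, which include leaving out *roX2* mutant replicate 2 or 4 or any 1 double mutant library, with edgeR adjusted p up to 0.138. Without *roX2* mutant replicate 3, *Chro*, *nsl1* and *MBD-R2* were called as well. That library was the highest of its genotype, and replicate 2 the lowest, for *JIL-1*, *Set2*, *pzg*, *nsl1* and *MBD-R2*. In *roX2* mutant replicate 2 a single gene took 20.9% of the counts on genes, against 7.41% to 12.6% in the other 12 libraries, and the part of this in the members' values was not tested.

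**Figure D3:**
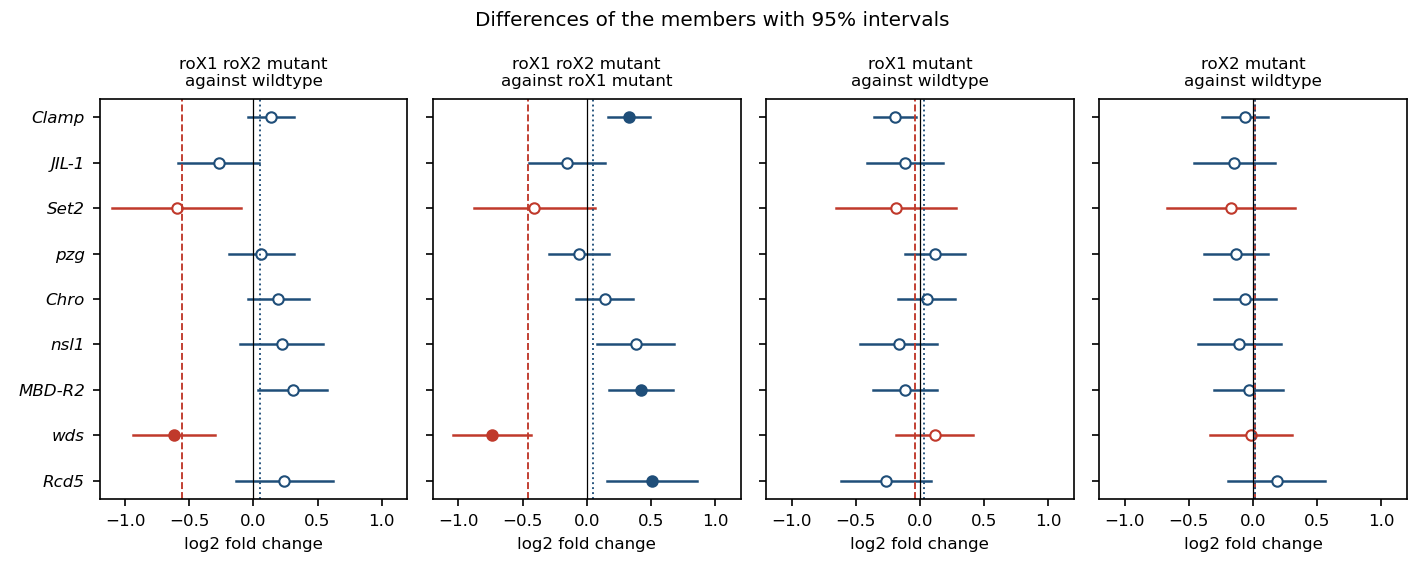
Log2 fold changes of the 9 members (points) with 95% intervals (lines) in 4 comparisons, with X genes in red and autosomal genes in blue. Filled points passed the test, and the dashed red and dotted blue lines mark the medians of X genes and of genes of the major autosome arms. In the *roX1 roX2* mutant against wildtype only *wds* is filled, and against the *roX1* mutant *Clamp*, *MBD-R2*, *wds* and *Rcd5* are.

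The single mutants ask whether 1 roX RNA suffices. In the *roX1* mutant against wildtype no member of 9 was called by edgeR, where 1.32% of all genes were, 1 had an unadjusted p under 0.05 and DESeq2 called 1 (979 over all genes). Both member counts refer to *Clamp*, with 71.4, 74.0, 68.8 and 67.7 CPM in the *roX1* mutant, against 79.8, 80.5 and 81.6 CPM in wildtype. Its log2 fold change was -0.19 (SE 0.08, edgeR adjusted p = 0.233), and -0.21 with DESeq2 (adjusted p = 0.0420). The groups did not overlap for *Clamp* and *nsl1*, 2 of 9 members, as for 16.2% of all genes. *Rcd5* passed among the 9 libraries named above, with a log2 fold change of -0.66 (edgeR adjusted p = 0.0383), against -0.27 over all libraries (edgeR adjusted p = 0.435).

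In the *roX2* mutant against wildtype no member of 9 was called by edgeR, where 0.351% of all genes were, and none had an unadjusted p under 0.05 or was called by DESeq2. The *roX2* mutant X chromosome came from another strain than that of wildtype, so the effects of deletion and strain cannot be told apart. Log2 fold changes lay between -0.17 and 0.18, and the widest 95% interval, that of *Set2*, ran from -0.67 to 0.33. Only for *Clamp* did the libraries not overlap, 1 of 9, as for 11.4% of all genes. The groups had 78.7, 77.2 and 75.7 CPM in the *roX2* mutant, against 79.8, 80.5 and 81.6 CPM in wildtype.

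Whether the loss of both RNAs differs from the sum of the single losses was tested as the interaction of the deletions. The genotypes also differed in their X chromosomes and mothers as described above, so this contrast cannot tell the deletions from those differences. No member of 9 was called by edgeR, where 3.01% of all genes were, 4 had an unadjusted p under 0.05 and DESeq2 called 2 (1503 over all genes). The share of all genes with an unadjusted p under 0.05 is not given for any comparison, so such counts have no background. *wds* had an interaction of -0.72 on the log2 scale (SE 0.20, edgeR adjusted p = 0.0771) and *Clamp* of 0.39 (SE 0.11, edgeR adjusted p = 0.0800). These were the members that DESeq2 called. The X median of the interaction was -0.52, and 36.8% of X genes lay below *wds*.

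Within each library the level of *wds* was set against that of the autosomal NSL members, a ratio that does not depend on normalization between libraries. The ratio of *wds* to *MBD-R2* in TPM was 0.391, 0.355 and 0.418 in double mutant libraries, against 0.883, 0.642 and 0.701 in wildtype libraries. It was 0.731 to 1.05 in the *roX1* mutant and 0.612 to 0.959 in the *roX2* mutant. The ratio of *wds* to *nsl1* was 0.314 to 0.388 in the *roX1 roX2* mutant and 0.532 to 0.710 in wildtype. That of *wds* to *Rcd5* was 0.177 to 0.186 in the *roX1 roX2* mutant and 0.271 to 0.486 in wildtype. For all 3 ratios the double mutant libraries lay below every other library, and since the ratios use the values already given they are a description with no test. They set an X gene against autosomal genes. Median log2 fold changes of the double mutant against wildtype were -0.55 for X genes and 0.05 for major autosome genes.

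**Figure D4:**
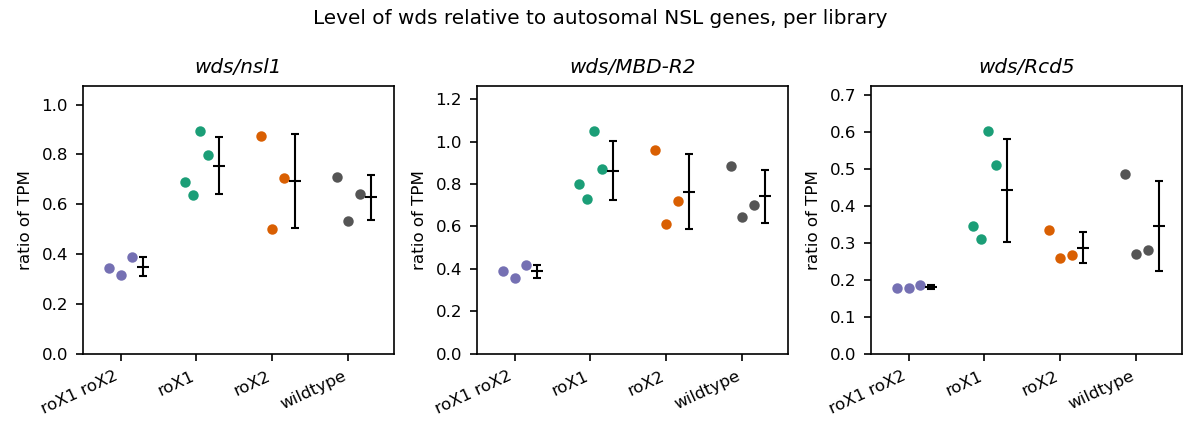
Ratio of the TPM of *wds* to that of *nsl1*, *MBD-R2* and *Rcd5* in each library (points), with the mean and SD of each genotype. The *roX1 roX2* mutant averages 0.349, 0.388 and 0.181, against 0.628, 0.742 and 0.346 in wildtype.

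Of the other NSL subunits (*dgt1*, *Rcd1*, *mof*), 1 of 3 was called in the *roX1 roX2* mutant against wildtype. The share over all genes was 9.08% there. *dgt1* rose, with 32.0, 26.4 and 29.6 CPM in the *roX1 roX2* mutant, against 19.7, 22.1 and 22.0 CPM in wildtype (log2 fold change 0.46, SE 0.12, edgeR adjusted p = 0.0406). Against the *roX1* mutant, where 18.0% of all genes were called, all 3 were called, *dgt1* and *Rcd1* higher and *mof* lower. The log2 fold change of *mof* was -0.41 there, beside an X median of -0.46. *Rcd1* and *mof* are named after their values were seen. *mof*, the X-linked gene of the acetyltransferase shared by both complexes, had 11.6 ± 1.11 CPM in the *roX1 roX2* mutant, 15.4 ± 1.10 in the *roX1* mutant and 14.9 ± 1.53 in wildtype (SD, n = 3, 4 and 3), and did not pass against wildtype (log2 fold change -0.36, edgeR adjusted p = 0.0993).

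Of the 4 MSL protein genes 1 was called in the *roX1 roX2* mutant against wildtype, where 9.08% of all genes were called. *msl-2*, the subunit limited to males, rose with 53.4, 55.9 and 53.6 CPM in the *roX1 roX2* mutant, against 39.2, 43.1 and 39.4 CPM in wildtype (log2 fold change 0.42, SE 0.12, edgeR adjusted p = 0.0463). The median of the list was 0.36. None of 10 other chromatin factors passed in edgeR, 3 had an unadjusted p under 0.05, and their median was 0.24. Of 8 mitotic genes *CycB* was called lower (-1.73, SE 0.47, edgeR adjusted p = 0.0443), with 4.74, 4.79 and 6.45 CPM in the *roX1 roX2* mutant, against 15.3, 32.6 and 5.03 CPM in wildtype. Those libraries overlap, and wildtype replicates 1 and 3 were higher than every other library of the series. The calls of *dgt1*, *msl-2* and *CycB* were not followed through the alternatives, which cover the members only. None of these lists had a gene called in either single mutant against wildtype, where 1 of 3 other NSL subunits, 3 of 10 chromatin factors and 2 of 8 mitotic genes had an unadjusted p under 0.05 in the *roX1* mutant, and 2 of 8 mitotic genes in the *roX2* mutant.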

How the data were processed

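Poly(A) RNA was sequenced as paired-end reads (TruSeq RNA v2 libraries). The authors mapped the reads with STAR 2.5.1b, counted them on genes with HTSeq 0.6.1 at default settings and deposited raw counts per gene, with no normalization or filter. Summary lines of the counting program (10.3% to 23.8% of each library) were left out. Gene names, coordinates and exon lengths were taken from Ensembl's release 6 annotation, in which 17229 identifiers matched and 247 did not.

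Genes whose counts over the 13 libraries added up to at least 20 were fitted in R 4.3.3 with edgeR 4.0.16 (TMM, quasi-likelihood test, genotype as the only factor), with Benjamini-Hochberg adjustment over 13975 genes per comparison and a threshold of 0.05. DESeq2 1.42.0, other scalings and filters, a replicate block, fewer genotypes, the larger side of the first principal component and leaving out each library were alternatives. The fit was tested on simulated counts, where recovery of small fold changes was low and depended on the dispersions simulated.

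Same-numbered wildtype and *roX1* mutant libraries deviated together (r = 0.694, 0.580 and 0.700 over 10347 genes), and these numbers were treated as pairs, from the data alone. Correlations between differently numbered libraries were not computed, so pairing is not shown. Each of these pairs also lay on 1 side of the first principal component, whose part in these r values was not tested. For other genotypes r was -0.689 to 0.392. A block on these 3 pairs, and the same 6 libraries without it, were added after seeing the data. So was edgeR's robust quasi-likelihood fit: it and the default were both run first, and the default was kept because its gene counts matched earlier results of these data. The members and gene lists were chosen with earlier results of these data known. All members are named, and genes of other lists where they passed against wildtype, except where stated.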

Additional observations from a re-analysis of the deposited data

Results flagged for a closer look

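*nsl1* was 130.9 CPM in *roX1* mutant replicate 3, against 122.3, 123.2 and 123.0 CPM in the other 3 libraries of that genotype. The gap to the nearest library was 0.894 of the whole range, above Dixon's 95% critical value for 4 libraries. Chance gives about 1 such gap in 20 groups, and 9 genes were looked at.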

How the results depend on the processing

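Members called, of 9, moved as follows. In the *roX1* mutant against wildtype (0), DESeq2 and the larger side of the principal component each gave 1. In the *roX1 roX2* mutant against wildtype (1), the replicate block gave 0, the genotypes compared alone gave 2, and leaving out 1 library gave 0 to 2. Against the *roX1* mutant (4), the genotypes compared alone gave 6, and leaving out 1 library gave 1 to 5. TMM over major autosome genes, no filter on low counts, the replicate block and the larger side gave 3 each. Against the *roX2* mutant (1), the replicate block and the genotypes compared alone gave 0, and leaving out 1 library 0 to 4. For the interaction (0), DESeq2 gave 2, TMM over major autosome genes and the larger side gave 1 each, and leaving out 1 library 0 to 3. Under the replicate block *wds* had edgeR adjusted p of 0.0927 against wildtype and 0.0601 against the *roX2* mutant, and *Rcd5* 0.121 against the *roX1* mutant. With the block on 3 pairs, and without it, no member was called in the *roX1* mutant. The robust edgeR fit called the same members as the default in all 6 comparisons, with 186, 53 and 1253 calls over all genes in the *roX1*, *roX2* and *roX1 roX2* mutants against wildtype. The causes were not tested.

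Of 808 single-gene values under alternatives, 751 kept direction and side of the threshold, 32 lost and 9 gained a call, and 16 changed sign, none of them called. With TMM over major autosome genes the sign changed for *wds* in the *roX2* mutant against wildtype (0.000914) and *pzg* in the *roX1 roX2* mutant (-0.0205), with the replicate block for *wds* in the *roX2* mutant (0.000874), and on the larger side for *wds* (0.0320) and *Rcd5* (-0.0593) in the *roX2* mutant. Leaving out 1 library, values in the *roX2* mutant ran from -0.523 to 0.0632 for *Set2*, -0.170 to 0.00988 for *Chro*, -0.314 to 0.0285 for *nsl1*, -0.155 to 0.0901 for *MBD-R2*, -0.0756 to 0.0269 for *wds* and -0.0196 to 0.275 for *Rcd5*. Those in the *roX1* mutant ran from -0.00552 to 0.0810 for *Chro* and -0.00300 to 0.184 for *wds*, and the *Set2* interaction from -0.473 to 0.115.

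Over all genes, DESeq2 called 979 against 185 with edgeR in the *roX1* mutant, 245 against 49 in the *roX2* mutant, 2215 against 1269 in the *roX1 roX2* mutant, 1805 against 1072 relative to the *roX2* mutant and 1503 against 420 for the interaction. The larger side gave 545 and 145 in the single mutants, the genotypes compared alone 87, 9 and, relative to the *roX2* mutant, 216, and the block 32 for loss of *roX2* and 818 for loss of both RNAs. The 3 pairs gave 73 with and 38 without the block. Leaving out 1 library gave 61 to 319, 23 to 59, 386 to 1860, 804 to 3315, 181 to 2009 and 73 to 1401 for the comparisons in the order of the first paragraph, with the *roX2* mutant against wildtype as the second. TMM over major autosome genes shifted the median of all genes by up to -0.10, and turned the share of calls that were higher to 21.8% (37.5% in the main fit) against wildtype and 12.4% (29.1%) against the *roX2* mutant.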
